A study of Mus musculus with 21 samples.

Results

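Joins of broken Sμ ends were compared between CH12F3 cells that carry 3 inserted CTCF-binding elements (CBEs) and lack the 3′CBEs, here called i3CBEc-3CBEdel, and the line from which they were made, here called NCdel. The comparison takes every library of both genotypes, 9 of the 21 libraries of the series: 3 of i3CBEc-3CBEdel (genotype i3CBEc-3'CBEs-delta) and 6 of NCdel (genotype CH12F3NC-delta). CH12F3 cells are mouse B lymphoma cells whose usual switch is to IgA. All cells of both groups carry a deletion from Sμ to Sα on the non-coding IgH allele, and all received anti-CD40 together with the cytokines IL4 and TGF-β for 72 h. In i3CBEc the inserted CBEs are convergent with the 3′CBEs, per the labels, and i3CBEc-3CBEdel adds the 3′CBE deletion to cells with the insertion. The labels name no clone for any genotype and do not say whether libraries of a group came from separate cultures, so p-values measure the spread between these libraries, which may be technical. The assay, CSR-HTGTS-seq, reads the join between a fixed broken end at the 5′ edge of Sμ, called the bait, and its partner, called the prey. The unit is 1 deposited junction, and the libraries held 1591, 1978 and 1773 junctions in i3CBEc-3CBEdel and 1623 to 2412 in NCdel, 16906 in all.

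Class switch recombination replaces the μ constant gene of the heavy chain by another constant gene further along the chromosome. The enzyme AID deaminates cytosines in the switch regions in front of the constant genes, most often in AGCT motifs, and the broken ends of Sμ and of a downstream switch region are joined. Joining that keeps the strand deletes the DNA in between and gives a productive switch, whereas joining to the other strand inverts it. Cohesin-driven loop extrusion brings switch regions together, and CTCF bound at convergent CBEs can halt it. Beyond the last constant gene, Cα, lie the 3′ regulatory region, a group of enhancers that drives switching, and then the 3′CBEs, the CTCF sites that border the locus. The series asks, by its design text, what cohesin-mediated loop extrusion contributes to switching in these mutants.

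On mm9 the bait lay at chr12:114664780-114664911, and downstream positions have lower coordinates. The insertion lies in the stretch between Sγ2a and Sε, since positions of the insertion libraries are 99 bases higher on the μ side of a step there, and this offset was subtracted from 114526902 upwards. Of 6901 words of 40 bases that matched between libraries with and without the insertion, 2012 lay 99 bases apart at or above the step, 4543 lay at the same position below it, 2 contradicted the step, and 344 lay at another distance. Where the 3′CBE deletion lies was not known here, and it was not sought in the junction lists. Switch regions were placed by AGCT density in the prey reads and took their names from the constant genes in chromosomal order. Sα spanned 114497000 to 114502999. Sε lay at 114512000 to 114516999, and Sμ at 114661000 to 114663999. The α unit is the region around Sα, 114492000 to 114507499, and the region downstream of it ran to 114414911, the edge of the window, 250 kb from the bait. A junction beyond this window, or over 20 kb upstream of the bait, is called outside. Sequencing runs, as named in the read names, never held both groups: NCdel came from runs 490, 371 and 451, and the 3 i3CBEc-3CBEdel libraries from runs 412, 426 and 438. Run and genotype cannot be told apart.

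Joins of i3CBEc-3CBEdel at the prey position used most in each region show what a junction is. Each line has 30 bases of bait, then 30 bases of prey, 5′ to 3′ as read, with shared bases written once. Capitals mark bases inserted between bait and prey in the α, stretch and upstream joins, and bases that fit both sides (microhomology) in the μ join; the downstream join is blunt.

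α, prey at 114500922: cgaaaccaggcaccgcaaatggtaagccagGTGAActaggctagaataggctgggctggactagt

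μ, prey at 114663269: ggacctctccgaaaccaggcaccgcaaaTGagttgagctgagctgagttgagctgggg

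stretch between Sγ2a and Sε, prey at 114518489: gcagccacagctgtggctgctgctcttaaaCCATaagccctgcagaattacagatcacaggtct

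downstream of the α unit, prey at 114452753: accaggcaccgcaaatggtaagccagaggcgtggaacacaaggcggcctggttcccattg

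upstream of the bait, prey at 114665054: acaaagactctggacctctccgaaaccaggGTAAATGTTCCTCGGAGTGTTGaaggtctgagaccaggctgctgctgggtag

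The μ position held 9 junctions of i3CBEc-3CBEdel and 12 of NCdel, and the α position 8 and 4. The downstream position held 3 of i3CBEc-3CBEdel and 0 of NCdel, and the stretch position 1 and 0. The upstream position held 5 and 6, and the 22 inserted bases shown are a long insert: inserts of any length were present in 17.0% ± 2.69 (n = 3) of upstream joins in i3CBEc-3CBEdel and 6.41% ± 4.94 (n = 6) in NCdel, and inserts of 5 or more bases in 8.57% ± 2.57 and 1.49% ± 2.47, which were not tested.

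Joins beyond Sα were more frequent in i3CBEc-3CBEdel. There 318 of 5342 junctions lay downstream of the α unit, against 27 of 11564 in NCdel. The 3 i3CBEc-3CBEdel libraries had 11, 56 and 251 such junctions, or 0.691% (95% Wilson interval 0.386 to 1.23), 2.83% (2.19 to 3.66) and 14.2% (12.6 to 15.9) of all junctions. The 6 NCdel libraries had 1 to 9, with shares from 0.0532% to 0.546% and a median of 0.185%. Every i3CBEc-3CBEdel library was above every NCdel library, but the lowest of the 3 was only just above the highest of the 6. The means were 5.89% ± 7.24 (SD, n = 3) and 0.242% ± 0.189 (n = 6), a ratio of 24.3. The exact two-sided permutation test over libraries gave p = 0.0119, the smallest that 3 against 6 libraries allow, and 0.0397 after Benjamini-Hochberg adjustment over 10 regions. Of these 10 regions 3 were called, a background of 30%. Library 3 supplied 78.9% of the joins: without it the mean was 1.76%, 7.27 times the NCdel mean, and the groups still did not overlap. The call was lost without any 1 library, when the smallest adjusted p was 0.0595, and so were the calls in ε and γ2b given further on. Downstream and ε stayed at the smallest exact permutation p that the remaining libraries allow, 0.0179 or 0.0357, so their loss comes with fewer libraries. γ2b stayed there only without an NCdel library. The other insertion line, i3CBEc, which keeps the 3′CBEs, had 16 such junctions in 3 libraries, or 0.408% ± 0.288 (n = 3).

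These joins fell into clusters. Among runs of 1-kb bins that each held at least 3 i3CBEc-3CBEdel junctions, the 2 longest were taken as clusters and shorter ones were not. They were a proximal cluster at chr12:114463000-114467999, 196.9 to 201.9 kb from the bait, and a distal cluster at chr12:114445000-114453999, 210.9 to 219.9 kb from it. The clusters were drawn from these junctions, so their counts are a description with no test. The distal cluster held 0, 47 and 119 junctions in i3CBEc-3CBEdel libraries 1, 2 and 3, and 0 in each NCdel library and each i3CBEc library. A count of 0 among the 11564 pooled NCdel junctions allows a share of up to 0.0259%, for counting error only. The i3CBEc-3CBEdel mean was 3.03% ± 3.40 (n = 3), and 1.19% without library 3. No fold is given, since the cluster was drawn from these junctions and library 1 held 0. For library 1, 0 of 1591 junctions allows up to 0.189%. The distal cluster was thus seen in 2 of the 3 libraries.

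The proximal cluster held 4, 8 and 120 junctions in i3CBEc-3CBEdel libraries 1, 2 and 3, and 8 in the 6 NCdel libraries together, from 0 to 3 in a library. Library 3 held 90.9% of the proximal joins of its group and 71.7% of the distal ones. The 9 kb between the clusters held 0 junctions in both groups and 2 in i3CBEc. How this gap relates to the 3′CBE deletion was not tested. From the lowest position, 114444148, to the edge of the window there were 0 further junctions. Between the proximal cluster and the α unit the groups had 18 and 19 junctions, 0.352% ± 0.268 in i3CBEc-3CBEdel and 0.168% ± 0.113 in NCdel. The joins were spread over many positions: the 251 of library 3 fell on 244 distinct prey positions, and the 56 of library 2 on 56.

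**Figure D1:**
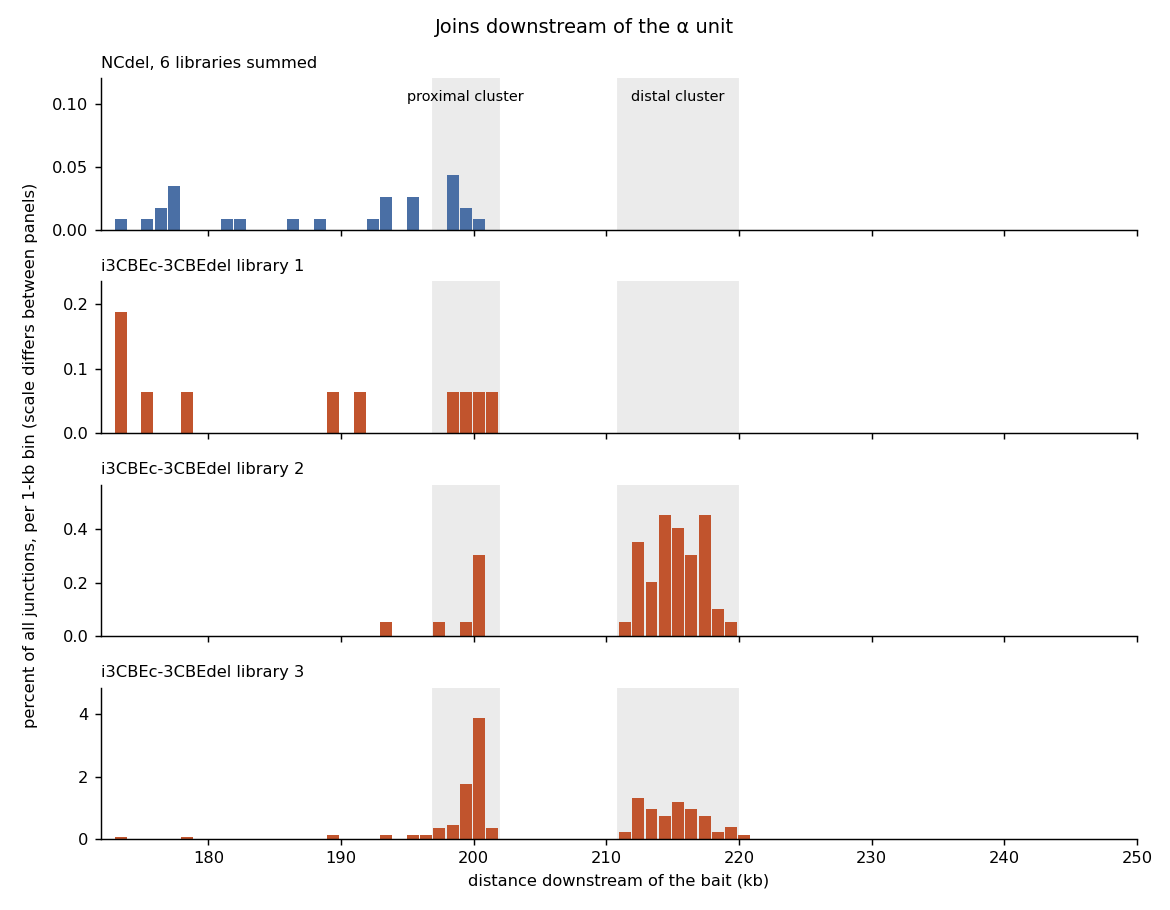
Joins downstream of the α unit, as percent of all junctions per 1-kb bin, against distance from the bait in kb; the panels are the 6 NCdel libraries summed and each i3CBEc-3CBEdel library, with their own vertical scales, and grey bands are the clusters. Library 2 has mainly the distal cluster (47 junctions), library 3 has both (120 and 119), and library 1 has 4 junctions in the proximal cluster and none in the distal one.

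Sequence under the clusters differed from Sα in AGCT content. In the prey reads of all 21 libraries AGCT occurred 3.68 times per 100 bases in Sα, 0.822 times in the proximal cluster and 0.304 times in the distal one. It occurred 0.512 times in the stretch between Sγ2a and Sε and 0.143 times upstream of the bait. A base read many times counts as often. A single bin of the proximal cluster, 114464000 to 114464999, reached 1.15 motifs per 100 bases, above the minimum of 1 used to place switch regions, and lay beyond the last of the 7 named blocks. Consensus stretches of 150 bases of prey reads from both clusters and from Sα, on the bait strand, show the contrast. In both cluster stretches the least covered base rests on 4 reads. Capitals mark AGCT, which reads the same on both strands.

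Sα, chr12:114500173-114500322: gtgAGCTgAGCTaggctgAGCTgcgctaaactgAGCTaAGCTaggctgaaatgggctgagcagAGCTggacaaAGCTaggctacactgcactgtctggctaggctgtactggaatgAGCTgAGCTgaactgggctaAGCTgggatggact

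proximal cluster, chr12:114464870-114465019: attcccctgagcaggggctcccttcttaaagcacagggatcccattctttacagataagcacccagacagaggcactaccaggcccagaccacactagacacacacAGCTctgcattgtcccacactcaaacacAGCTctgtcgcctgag

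distal cluster, chr12:114452692-114452841: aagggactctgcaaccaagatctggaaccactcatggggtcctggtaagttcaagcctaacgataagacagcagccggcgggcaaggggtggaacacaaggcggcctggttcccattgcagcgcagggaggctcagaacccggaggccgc

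The Sα stretch has 10 AGCT motifs and held 238 junctions of i3CBEc-3CBEdel and 530 of NCdel. The proximal stretch has 2 motifs and held 20 and 0 junctions. The distal stretch has 0 motifs and held 12 and 0. A stretch without AGCT says nothing of other AID motifs, which were not searched.

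Among downstream joins of i3CBEc-3CBEdel, 237 of 318 were on the bait strand, as deletional joins are, and 81 on the other strand. The bait-strand share was 72.9% in the distal cluster (121 of 166) and 78.8% in the proximal one (104 of 132). In NCdel 21 of 27 downstream joins were on the bait strand. Since some libraries had fewer than 5 such joins, the strand of downstream joins was not tested. Microhomology was present in 56.3% of the 318 joins, 28.9% were blunt and 14.8% had inserted bases.

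In the fit of 1-kb bins across IgH, 31 bins had at least 10 junctions over the 9 libraries, and limma with Benjamini-Hochberg adjustment called 12 of them (38.7%). Of these, 11 were higher in i3CBEc-3CBEdel (35.5% of bins) and 1 was lower (3.23%). All 11 passed the filter only through i3CBEc-3CBEdel, so that their direction was fixed by the filter, and the 1 lower bin passed only through NCdel. The sizes of single bins are therefore given as a description, with no p, and support none of the region results. Of the 11, 7 lay downstream of the α unit, 2 in ε, 1 in the stretch and 1 upstream of the bait. The bin at 114464000 of the proximal cluster had 1, 6 and 69 junctions in i3CBEc-3CBEdel and 1 in all of NCdel, a log2 difference of 3.91 ± 1.03 (SE). Distal bins at 114449000, 114452000, 114447000 and 114450000 had 29, 30, 22 and 22 junctions in i3CBEc-3CBEdel, 0 in library 1 throughout, and 0 in NCdel. Their log2 differences were 3.18 ± 0.99, 3.16 ± 1.00, 3.00 ± 0.91 and 3.00 ± 0.91 (SE). The log2 scale adds the value of 0.5 junctions, so such differences against 0 depend on that addition and give no fold. Without i3CBEc-3CBEdel library 3 limma called 0 of the 19 bins then tested, with 3 at an unadjusted p under 0.05. Without library 1 or 2 of i3CBEc-3CBEdel 9 and 4 bins were called higher and 0 lower, and without any 1 NCdel library 1 to 3 were called higher.

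The α unit was the main acceptor, the region that receives Sμ ends, in both groups. It held 52.3%, 29.0% and 48.3% of all junctions in the 3 i3CBEc-3CBEdel libraries, and 34.0% to 52.3% in NCdel with a median of 41.3%. The means were 43.2% ± 12.5 (n = 3) and 43.2% ± 7.24 (n = 6; exact permutation p = 1, adjusted 1). The ranges overlapped, and each group's libraries differed by more than the means did. This value depended on the denominator. As a share of junctions inside the window, the α unit held 64.6%, 50.8% and 54.8% in i3CBEc-3CBEdel and 67.5% to 72.9% in NCdel. The groups then did not overlap, with means of 56.7% ± 7.12 and 69.6% ± 2.55, a difference of −12.9 percentage points (exact permutation p = 0.0119, adjusted 0.0298). The share of junctions outside the window, by which the denominators differ, varied between libraries of both groups: it was 19.0%, 42.9% and 11.7% in i3CBEc-3CBEdel, and in NCdel 43.2% to 49.6% in libraries 1 to 4 and 23.2% and 24.1% in libraries 5 and 6, which shared a run. Its difference was not called (24.6% ± 16.3 against 37.8% ± 11.2, exact permutation adjusted p = 0.298). Of the 5 totals tested by exact permutation, 0 were called, a background of 0%, and 1 was at an unadjusted p under 0.05: chromosome 12 on the telomeric side, at 0.498% and 0.268%.

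Joins within the μ unit, from the bait through Sμ to 114632500, made up 23.9%, 21.7% and 22.7% of i3CBEc-3CBEdel junctions. In NCdel they made up 12.6% to 21.7%, with a median of 15.2%, and the highest NCdel library lay just above the lowest of i3CBEc-3CBEdel. The means of 22.8% ± 1.10 and 16.4% ± 4.03 gave an exact permutation p of 0.0595 (adjusted 0.119). NCdel libraries 5 and 6, with few junctions outside the window, were the highest of their group, at 21.7% and 21.1%. As a share of junctions inside the window, the μ unit held 29.5%, 38.0% and 25.8% in i3CBEc-3CBEdel. In NCdel it held 22.2% to 28.6%, with overlap (exact permutation p = 0.190, adjusted 0.238). Not all μ-unit joins were joins to Sμ: the bin at 114664000, on the bait side of Sμ, held 445 junctions of i3CBEc-3CBEdel and 570 of NCdel. These were 8.41% and 4.93% of all junctions on average, and the bin was not called. The whole μ unit held 1212 and 1898 junctions. All acceptor regions together, from γ3 to α, took 44.7% of junctions in i3CBEc-3CBEdel and 44.1% in NCdel on average (adjusted p = 0.964, exact permutation test).

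**Figure D2:**
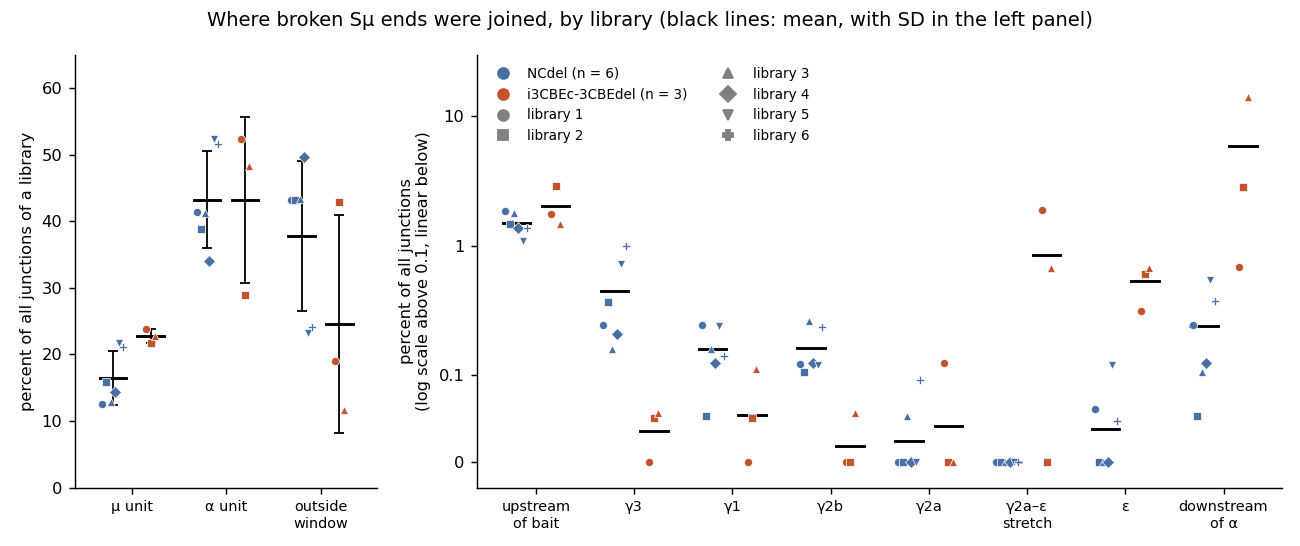
Percent of all junctions of a library in each region, with 1 point per library, its shape the library number, and a black line at the group mean; bars in the left panel are ± SD, and the right panel has a log scale above 0.1 and a linear one below. i3CBEc-3CBEdel libraries lie above all NCdel libraries in ε and downstream of α and below them in γ3 and γ2b, while the groups overlap in the α unit.

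Of the acceptors between Sμ and the insertion, γ2b fell, and γ3, γ1 and γ2a did not pass the test. Sγ2b precedes the γ2b constant gene. Its unit had 0, 0 and 1 junctions in i3CBEc-3CBEdel and 2 to 5 in each NCdel library, 19 in all. The shares were 0.0188% ± 0.0326 (n = 3) and 0.163% ± 0.0691 (n = 6), without overlap (exact permutation p = 0.0119, adjusted 0.0397), and the call rests on 20 junctions. The γ3 unit had 0, 1 and 1 junctions in i3CBEc-3CBEdel and 3 to 21 in each NCdel library, 52 in all. Its groups did not overlap either, with means of 0.0357% ± 0.0310 and 0.451% ± 0.336, yet the difference missed the threshold (exact permutation p = 0.0833, adjusted 0.119). In all, 4 of the 10 regions did not overlap between groups (40%). Within γ3 the bin at 114602000 held 0 junctions of i3CBEc-3CBEdel and 1, 4, 0, 5, 5 and 16 of the NCdel libraries. It was the 1 bin called lower, by −2.76 ± 0.93 on the log2 scale (SE), and it passed the filter only through NCdel. The γ1 unit had 3 and 18 junctions (exact permutation adjusted p = 0.119), and the γ2a unit 2 and 3 (adjusted p = 0.913). i3CBEc had 1 junction in γ3 and 1 in γ2b among its 3828, which was not tested.

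Beyond the insertion, ε rose, and joins within the stretch itself did not pass the test. Sε, the switch region of IgE, received 5, 12 and 12 junctions in the i3CBEc-3CBEdel libraries, 0.314%, 0.607% and 0.677% of all junctions. NCdel had 0 to 2 in a library and 4 in all. The groups did not overlap, with means of 0.533% ± 0.192 (n = 3) and 0.0384% ± 0.0488 (n = 6; exact permutation p = 0.0119, adjusted 0.0397). The 29 joins used 28 positions, 22 on the bait strand. The bin at 114513000 had 3, 4 and 3 junctions against 0 in NCdel, a log2 difference of 3.00 ± 0.19 (SE), given as a description, since it passed the filter only through i3CBEc-3CBEdel. i3CBEc had 17 joins in ε, or 0.458% ± 0.338 (n = 3).

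Between Sγ2a and Sε, in the stretch with the insertion, there were 30, 0 and 12 junctions in i3CBEc-3CBEdel and 0 of 11564 in NCdel, which allows a share of up to 0.0259%. Library 2, with 0 of 1978, allows up to 0.152%, and library 1 had 1.89% (95% Wilson interval 1.32 to 2.68), both for counting error only. The i3CBEc-3CBEdel mean was 0.854% ± 0.955 (n = 3), and 0.338% without library 1. The test gave an exact permutation p of 0.0833 (adjusted 0.119), with library 2 at 0 as all of NCdel. i3CBEc had 35 joins here, or 0.905% ± 0.383 (n = 3), and they lay in all 3 libraries. The joins of i3CBEc-3CBEdel gathered at 114521000 to 114521999, with 14 and 3 in libraries 1 and 3, and used 42 positions for 42 joins. Of these, 31 were on the bait strand and 11 on the other.

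The strand of the joins differed in the α and μ units, and upstream of the bait as given further on. In the α unit, prey on the bait strand, the deletional joins, made up 81.4%, 79.4% and 80.2% of joins in i3CBEc-3CBEdel. In NCdel they made up 96.4% to 98.5%, with a median of 97.4%. The groups lay far apart relative to their spread, at 80.3% ± 0.990 (n = 3) and 97.4% ± 0.837 (n = 6; exact permutation p = 0.0119, adjusted 0.0298 over 5 values). Of these 5 regions 3 were called (60%), and 2 did not overlap (40%). Counted the other way, inversional joins to the α unit were 155, 118 and 170 in the i3CBEc-3CBEdel libraries and 11 to 31 in the NCdel libraries. They made up 8.43% ± 2.14 and 1.13% ± 0.459 of all junctions, a ratio of 7.49. Deletional joins to the α unit made up 34.8% ± 10.4 and 42.1% ± 6.94, with overlapping ranges. In i3CBEc, a value added here after it was seen, 18.9% ± 1.16 of α joins were inversional, beside 19.7% ± 0.990 in i3CBEc-3CBEdel. The difference between these lines was not tested.

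The μ unit changed the same way. Bait-strand joins made up 82.1%, 70.9% and 79.4% of μ joins in i3CBEc-3CBEdel and 86.5% to 94.1% in NCdel, without overlap. The means were 77.5% ± 5.87 and 89.4% ± 2.73 (exact permutation p = 0.0119, adjusted 0.0298). In i3CBEc the share was 81.0% ± 1.17 (n = 3), which was not tested. The strand calls in α and μ were lost without any 1 i3CBEc-3CBEdel library and kept without any 1 NCdel library. Differences over these fits were −17.6 to −16.7 and −14.3 to −8.65 percentage points. Without an i3CBEc-3CBEdel library no exact permutation p can be under 0.0357, and the adjusted p was at most 0.0893. The loss thus comes with fewer libraries. Inversional μ joins made up 5.09% ± 1.08 of all junctions in i3CBEc-3CBEdel and 1.79% ± 0.740 in NCdel, a ratio of 2.84. Outside the window no such difference was called. On chromosome 12 the bait-strand share was 53.6% ± 4.63 in i3CBEc-3CBEdel and 50.5% ± 8.99 in NCdel (exact permutation adjusted p = 0.595). On other chromosomes it was 44.6% ± 3.78 and 49.5% ± 2.46 (exact permutation adjusted p = 0.0744), and called only without NCdel library 1 or 6 (adjusted p = 0.0446).

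**Figure D3:**
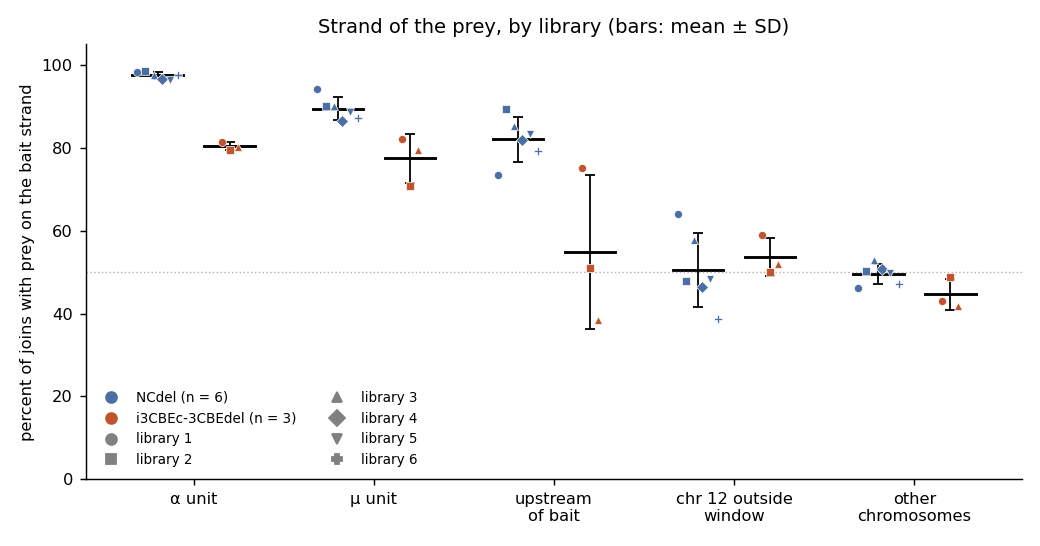
Percent of joins with prey on the bait strand, by region, with 1 point per library, its shape the library number, and black bars at the mean ± SD; the dotted line is 50%. In the α unit the 3 i3CBEc-3CBEdel libraries sit between 79.4% and 81.4%, below all 6 NCdel libraries (96.4% to 98.5%), and shares outside the window lie near 50% in both groups.

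Position within Sα differed with orientation. The median prey position of deletional α joins was 114500267, 114500849 and 114500389 in i3CBEc-3CBEdel and 114500778 to 114500944 in NCdel. The difference in means was −361 bases, away from the bait and towards Cα (exact permutation p = 0.0238, adjusted 0.0357 over 3 values, of which 2 were called, or 66.7%). Library 2 lay within the NCdel range, and the call was lost without any 1 library. Inversional joins went the other way. Their median was 114501643, 114501446 and 114501403 in i3CBEc-3CBEdel, and 114500946 to 114501242 in NCdel, where it rests on 11 to 31 joins. The inversional median lay 1376, 596.5 and 1014 bases nearer to the bait than the deletional one in i3CBEc-3CBEdel, and 73 to 378.5 bases nearer in NCdel. In i3CBEc it lay 689, 750 and 805 bases nearer, values added here after they were seen. The share of deletional α joins on the Cα side of 114500000 was 24.2% in i3CBEc-3CBEdel and 13.5% in NCdel. Inversional medians and these shares were not tested.

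**Figure D4:**
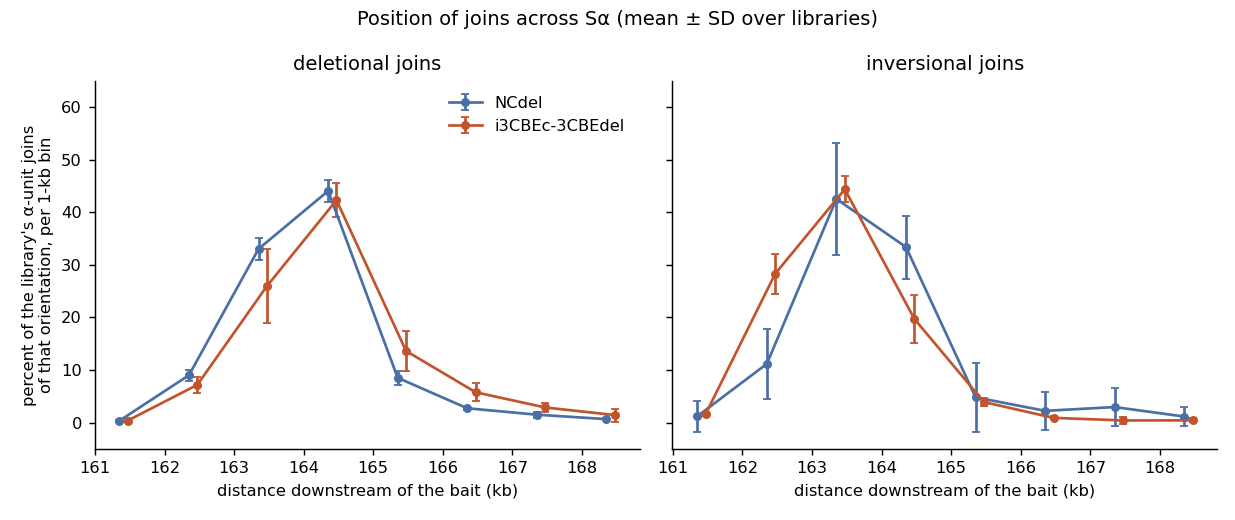
Joins across Sα per 1-kb bin, as percent of a library's α joins of the same orientation, against distance from the bait in kb; points are means over libraries and bars ± SD. In i3CBEc-3CBEdel the deletional profile has more joins on the far side of the peak and the inversional profile more on the near side than in NCdel.

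Upstream of the bait, joins of i3CBEc-3CBEdel lay further away and more often on the other strand, while their share of all junctions did not pass the test. They made up 1.76%, 2.88% and 1.47% of junctions in i3CBEc-3CBEdel and 1.09% to 1.85% in NCdel (2.04% ± 0.747 against 1.50% ± 0.288, exact permutation adjusted p = 0.179). All lay within 2815 bases of the bait in both groups, although the window reached 20 kb. The bait-strand share was 75.0%, 50.9% and 38.5% in i3CBEc-3CBEdel, on 28, 57 and 26 joins, and 73.3% to 89.3% in NCdel. The ranges overlapped at library 1, and the means of 54.8% ± 18.6 and 82.1% ± 5.44 differed (exact permutation p = 0.0238, adjusted 0.0397). The call held only without NCdel library 1 or 6, among the 9 fits that left out 1 library, with differences of −37.4 to −19.1 percentage points. Joins on the other strand made up 0.919% ± 0.488 of all junctions in i3CBEc-3CBEdel (51 joins) and 0.272% ± 0.119 in NCdel (31 joins).

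The median distance of upstream joins from the bait was 1467.5, 219 and 1222 bases in i3CBEc-3CBEdel. In NCdel it was 160.5 to 204 bases in 5 libraries and 458.5 in library 5. The means were 970 ± 661 and 230 ± 114 bases (exact permutation p = 0.0238, adjusted 0.0357), with library 2 inside the NCdel range, and this call too was lost without any 1 library. Beyond 1000 bases lay 16, 8 and 15 joins in the i3CBEc-3CBEdel libraries and 1 to 6 in the NCdel libraries, or 0.752% ± 0.311 and 0.175% ± 0.0932 of all junctions. Close to the bait the pattern was uneven. The position 114665056 held 21 joins of NCdel and 3 of i3CBEc-3CBEdel, and 114665059 held 9 and 1. Within 250 bases on the bait strand, i3CBEc-3CBEdel had 8, 25 and 0 joins in libraries 1, 2 and 3, and NCdel 8 to 21.

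**Figure D5:**
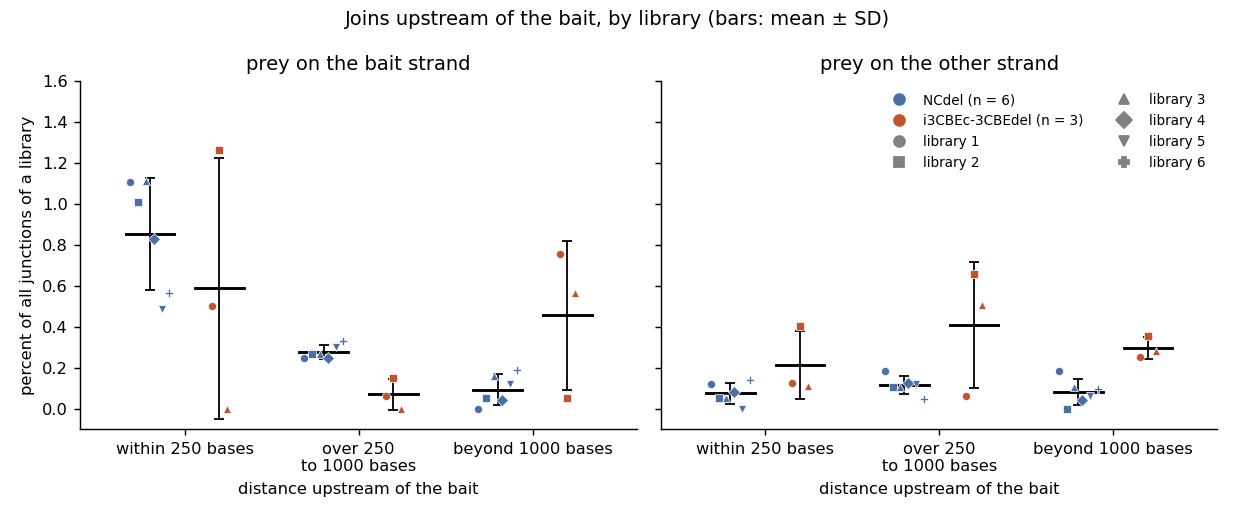
Joins upstream of the bait as percent of all junctions of a library, by distance from the bait and strand of the prey, with 1 point per library, its shape the library number, and black bars at the mean ± SD. Beyond 1000 bases on the other strand the 3 i3CBEc-3CBEdel libraries (0.251% to 0.354%) lie above the 6 NCdel libraries (0% to 0.185%).

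The structure of the joins, that is, inserted bases, blunt ends or microhomology, was compared in all junctions, in the α unit and outside the window. None of the 9 values was called (0%), although 2 were at an unadjusted exact permutation p of 0.0238. Inserted bases were present in 24.5%, 23.0% and 23.7% of α joins in i3CBEc-3CBEdel and 19.0% to 23.1% in NCdel (23.7% ± 0.743 against 21.4% ± 1.31, exact permutation adjusted p = 0.107). Microhomology was present in 52.9% ± 3.18 and 57.0% ± 2.01 of α joins (adjusted p = 0.107, exact permutation test), and blunt joins made up 23.4% ± 2.61 and 21.6% ± 2.00. Among all junctions, inserted bases were present in 23.3%, 18.8% and 24.8% in i3CBEc-3CBEdel and 16.2% to 22.3% in NCdel (22.3% ± 3.12 against 18.4% ± 2.62, exact permutation adjusted p = 0.193). Outside the window they were present in 15.5%, 11.2% and 29.3% and in 8.03% to 16.8% (18.7% ± 9.47 against 10.6% ± 3.23, exact permutation adjusted p = 0.161). Library 3, the highest there, was also the library with the fewest junctions outside the window, 208. Inserts of 5 or more bases were present in 4.07% ± 0.81 of α joins in i3CBEc-3CBEdel and 3.92% ± 0.44 in NCdel. In inversional α joins of i3CBEc-3CBEdel inserted bases were present in 21.0% ± 5.72, beside 24.5% ± 0.937 in deletional ones. In NCdel they were present in 10.3% ± 8.79 of inversional α joins, on 11 to 31 joins in a library, and in 21.6% ± 1.34 of deletional ones. These orientation values were not tested.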

How the data were processed

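CSR-HTGTS-seq junctions of 9 libraries (3 i3CBEc-3CBEdel, 6 NCdel) were read from the deposited tables, which hold 1 line per kept junction, with other values such as positions in bases of mm9 and the MH column. The submitters' processing notes name Bowtie2 and mm9. Versions, filter settings and molecular identifiers are not given in the sources used here. Positions in the insertion libraries at or above 114526902 on chromosome 12 were reduced by 99. The exact insertion site is not given, so positions near the step may be off by up to 99 bases. MH equalled prey query start minus bait query end minus 1 in every line, so above 0 it counts inserted bases. Repeats of a join (0.555% to 0.946% of a library) were kept, no read name was shared between libraries, and 3 of 16884 read sequences were.

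Shares are percent of all junctions of a library, given as mean ± SD over libraries, and are parts of a whole that move against each other. Libraries held 1591 to 2412 junctions. Wilson intervals (95%) and the limit for a count of 0 (3 junctions over the total) cover counting error only. Switch regions are runs of 1-kb bins with at least 1 AGCT per 100 bases over at least 1000 read bases, merged within 3 kb, named by the order of constant genes in RefSeq's mouse table of another build, whose coordinates were not used. The block named Sγ2a stands at Ighg2c in that table. Group means were compared by exact two-sided permutation over 84 splits, with Benjamini-Hochberg adjustment within a family and a threshold of 0.05. Bins of 1 kb were fitted with limma 3.58.1 in R 4.3.3 on log2 of the percent plus the value of 0.5 junctions, and both tests were tested on simulated data. Other tools were Python 3.11.15, numpy 2.4.6 and pandas 2.3.3. Text names every region, the 6 largest called bins in each direction, most-used positions, and the join at the most-used position in α, μ, the stretch, downstream and upstream. The rule limits i3CBEc values to the stretch, ε and downstream. Exceptions added after values were seen are α and μ strand, the α medians, γ3, γ2b and the site on chromosome 14. The comparison, regions and lists were chosen with earlier results of these data known. Alternatives were other denominators, strands, filters, bin sizes and pseudocounts, libraries left out, NCdel libraries split by number, and a replicate block.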

Additional observations from a re-analysis of the deposited data

Results flagged for a closer look

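In 32 values tested for a library far from the other 5 of NCdel, 2 stood apart, both high in library 5. Chance flags about 1 in 20. The share of joins outside the window with inserted bases was 16.8% in NCdel library 5, next to 8.03% to 11.0% in the others. The median distance of upstream joins from the bait was 458.5 bases in that library, next to 160.5 to 204 bases in the others. That library had 18 upstream joins, 8 of them within 250 bases of the bait, where the others had 15 to 22.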

How the results depend on the processing

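Differences are i3CBEc-3CBEdel minus NCdel, in percentage points unless said. With 3 against 6 libraries there are 84 splits, and every left-out library leaves fewer. Shares under 0.2% rest on a few junctions. Of 230 values under alternatives other than leaving out 1 library, 168 kept direction and side of the threshold.

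Leaving out 1 library at a time, the lowest and highest differences were 1.52 and 8.25 downstream of α, 0.422 and 0.603 in ε, −0.163 and −0.124 in γ2b, −0.0246 and 0.0382 in γ2a, −4.57 and 7.09 in α, and −4.27 and 8.20 in all acceptors. For bait-strand shares they were −17.6 and −16.7 in α, −14.3 and −8.65 in μ, and −37.4 and −19.1 upstream. They were −534 and −243 bases for the deletional α median, 491 and 1115 bases for the upstream distance, −3.17 and 2.33 bases for the median bait length, and −0.491 and 0.498 for blunt joins in all junctions. Bins called were 0 to 9 higher and 0 to 1 lower. All 9 settings lost the calls downstream, in ε, in γ2b and of both medians. Downstream and ε were then at the smallest exact permutation p possible, 0.0179 or 0.0357.

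With NCdel libraries 1 to 3 alone, or 4 to 6 alone (smallest p 0.1), calls were lost at differences of 5.76 and 5.54 downstream, 0.512 and 0.476 in ε, −0.146 and −0.142 in γ2b, −17.7 and −16.5 for α strand, −13.9 and −9.96 for μ strand, −27.9 and −26.7 for upstream strand, −358 and −363 bases for the α median, and 797 and 683 bases for the upstream distance. The α share turned to 2.70 with libraries 1 to 3, and all acceptors to −2.28 with 4 to 6. The bait-strand share on chromosome 12 outside turned to −2.90, and blunt joins to −0.704, with libraries 1 to 3.

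Replicate numbers 1 to 3 are shared, but the libraries do not pair: deviations of same-numbered libraries correlated at −0.151, 0.336 and 0.0550 over 31 bins. The replicate block (smallest p 0.25) uses NCdel libraries 1 to 3 and gave their differences: 5.76, 0.512, −0.146, −17.7, −13.9, −27.9, −358 and 797 in the order above, all uncalled, α at 2.70, chromosome 12 outside at −2.90 and blunt joins at −0.704. With the block, 1 bin was higher and 0 lower.

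Per 100 μ joins, downstream was 24.7, ε 2.15 and γ2b −0.959, all uncalled, all acceptors −79.0, upstream −0.808 and chromosome 12 centromeric of the window −2.54. Inside the window, α was −12.9 (called) and all acceptors −12.2. Without 10 kb around the bait, downstream was 7.48, ε 0.658 and γ2b −0.174, all uncalled, and α 4.43. On bait-strand joins alone, γ1 was −0.134 (called), γ2b −0.115 (uncalled), upstream −0.107 and all acceptors −6.90. With positions as deposited, upstream was 2.29 (called), because μ joins moved past the bait by construction.

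Bins called higher were 3 with no filter, 0 with 500-base bins, 1 with NCdel libraries 1 to 3, 1 with 4 to 6, and 18 with all 5 groups in the fit. Bins called lower were 0 with a pseudocount of 1 or of 2 junctions, 0 with 500-base bins, 0 with NCdel libraries 1 to 3, 2 with a minimum of 5 junctions, 2 with 2-kb bins and 4 with all 5 groups. The causes were not tested.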

Other observations

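A site on another chromosome, chosen after its values were seen, received joins in every library. At chr14:32427222-32427536 (mm9) the i3CBEc-3CBEdel libraries had 16, 16 and 9 junctions, or 1.01%, 0.809% and 0.508% of all junctions. The NCdel libraries had 3, 7, 11, 8, 8 and 14, from 0.185% to 0.662%, and the i3CBEc libraries 4, 4 and 8. In the 12 libraries together, 108 junctions fell on 71 positions, 96 of them with prey on the plus strand. The site was not tested, and no mm9 annotation was used here to name what lies there.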
